A study of Danio rerio with 12 samples.

Results

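The casein kinases are 2 distinct families of serine/threonine kinases, CK1 and CK2, and 10 of their zebrafish genes were measured here in the adult brain. These were the CK1 delta genes *csnk1da* and *csnk1db*, the CK1 epsilon gene *csnk1e*, the CK1 alpha gene *csnk1a1*, the CK1 gamma genes *csnk1g1*, *csnk1g2a* and *csnk1g2b*, the CK2 catalytic subunit genes *csnk2a1* and *csnk2a2a*, and the CK2 regulatory subunit gene *csnk2b*. They were taken by symbol from the 32520 gene IDs of each library, and *csnk1db* was taken as ENSDARG00000006125, which some tables list as csnk1d. RNA was sequenced from 6 GR-mutant and 6 wild-type brains of male siblings aged 22 months. GR-mutant fish carried 2 copies of gr s357 in every cell, a missense change in *nr3c1*, the gene of the glucocorticoid receptor (GR), and wild-type fish were gr +/+. Each brain kept its olfactory bulbs and pituitary and gave 1 poly(A)-selected library. All tissue was taken in a single window of the late morning, so that 1 phase of the daily cycle was sampled, and the genotypes lived in separate tanks, so that tank and genotype cannot be told apart.

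CK1 kinases are active as single proteins and find their substrates largely through the partners that hold them. In animals CK1 delta and epsilon phosphorylate the Period proteins of the circadian clock, which sets how long these repressors of CLOCK and BMAL last, and zebrafish carry 2 CK1 delta genes. CK1 alpha phosphorylates beta-catenin in its destruction complex, and the membrane-bound CK1 gamma phosphorylates the Wnt co-receptor LRP6. CK2 is a tetramer of catalytic and regulatory subunits with a very wide range of substrates, among them CDC37 and p23 (the product of PTGES3), co-chaperones that work with Hsp90, the chaperone that holds steroid receptors such as GR ready to bind hormone.

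All 10 genes passed the filter on low values, with 983 to 9172 reads for any of them in any library. Of the 7 CK1 genes, 4 were lower in GR-mutant brains, none was higher and 3 did not pass the test, which was an adjusted p below 0.05 in limma fitted across 20114 genes. Of the 3 CK2 genes, 1 was higher and 2 did not pass. Over all genes tested, 17.5% were called, 9.92% lower and 7.59% higher, and among the 5590 tested genes with a mean of at least 1000 normalised counts, as all 10 casein kinases had, 23.4% were called, 16.5% lower and 6.92% higher. The median log2 fold change of the 10 genes was -0.06, against 0.01 over all genes tested. In 3 of the 10 genes, *csnk1db*, *csnk1a1* and *csnk1g2a*, every GR-mutant brain lay below every wild-type brain, which held for 4.92% of all genes tested and for 8.98% of those with a mean of at least 1000. In none did every GR-mutant brain lie above every wild-type brain, which held for 3.35% of all genes and 3.33% of those with a mean of at least 1000. DESeq2 on the recovered reads also called 4 of the 10 lower and 1 higher, where it called 12.2% of all genes lower and 9.73% higher.

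The values are gene counts divided by library size factors, here called normalised counts. They are not corrected for gene length, so the levels of different genes are not ranked against each other. Whole tissue was sequenced, and fewer cells of a type and less RNA per cell cannot be told apart. The normalised counts of a library summed to 28539104 to 29513949 in GR-mutant and to 29540644 to 31637122 in wild-type brains, without overlap. When each library was instead scaled to the same total, 6.52% of genes were called lower (1312) and 15% higher (3023), against 1996 lower and 1527 higher with the deposited scaling, and the median log2 fold change of all genes moved to 0.09. The casein kinase calls at equal totals were 3 lower and 2 higher, and each gene for which this scaling changed the call or turned the direction is named with its value.

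**Figure D1:**
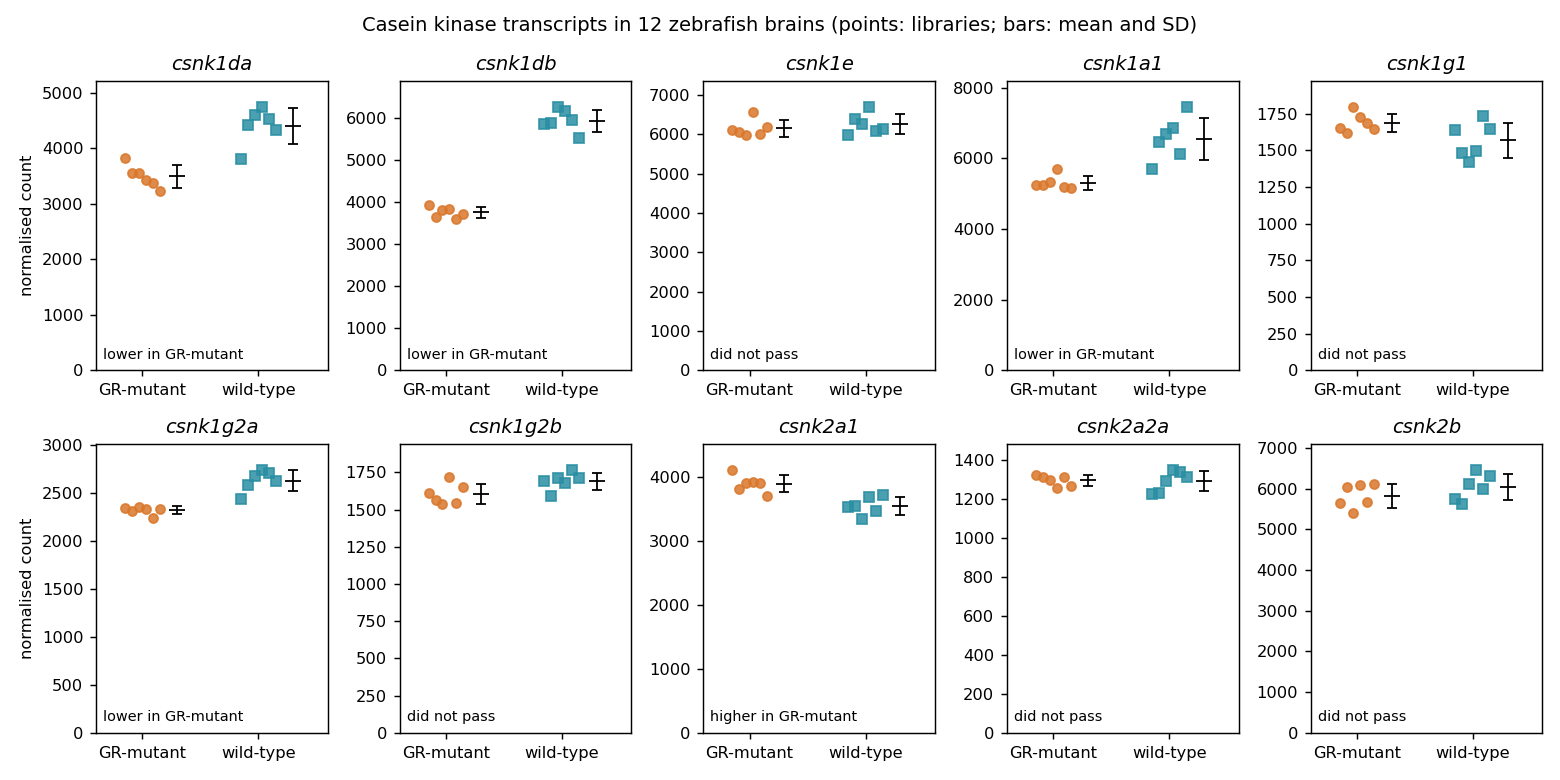
Normalised counts (vertical axes, starting at 0) of the 10 casein kinase genes in 6 GR-mutant and 6 wild-type brains; each point is 1 library, and the bars are the mean and SD. The genotypes are furthest apart for *csnk1db*, with GR-mutant libraries at 3590 to 3934 and wild-type libraries at 5507 to 6243, and they lie on top of each other for *csnk1e* and *csnk2a2a*.

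*csnk1db* (ENSDARG00000006125), which encodes a CK1 delta kinase, had the largest change of the 10. It had 3590, 3749 and 3934 normalised counts at the lowest, median and highest GR-mutant brain, against 5507, 5908 and 6243 in wild-type brains. The genotypes did not overlap, and the gap between them was wider than the whole spread within either. The means were 3747 ± 132 in GR-mutant and 5928 ± 261 in wild-type brains (SD, n = 6 each), a ratio of 0.632. The log2 fold change was -0.66 (SE 0.04, 95% interval -0.75 to -0.57, adjusted p = 2.51e-07), and *csnk1db* ranked 23 of the 20114 genes by p. Leaving out any 1 library kept the adjusted p between 5.06e-07 and 1.82e-06.

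*csnk1da* (ENSDARG00000008370), the second CK1 delta gene, also fell. It had 3222, 3494 and 3830 normalised counts at the lowest, median and highest GR-mutant brain, against 3803, 4476 and 4739 in wild-type brains. Of the 6 GR-mutant brains, 5 lay below every wild-type brain, and the overlap came from GR-mutant replicate 1 (3830) and wild-type replicate 1 (3803). The means were 3497 ± 205 and 4402 ± 326 (SD, n = 6 each), with a log2 fold change of -0.33 (SE 0.06, 95% interval -0.45 to -0.21, adjusted p = 0.00171).

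*csnk1e* (ENSDARG00000045150) encodes CK1 epsilon, which acts on Period proteins beside CK1 delta. It had 5985, 6083 and 6574 normalised counts at the lowest, median and highest GR-mutant brain, against 5969, 6202 and 6685 in wild-type brains, and the ranges covered each other almost fully. The log2 fold change was -0.02 (adjusted p = 0.727), and its 95% interval ran from -0.11 to 0.06, so that a change as large as that of either CK1 delta gene lay outside it. At equal library totals the value was 0.06 (adjusted p = 0.300).

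The unequal change of these 3 genes was tested within each library, where scaling between libraries plays no part. The ratio of *csnk1db* to *csnk1da* was 1.02 to 1.15 in GR-mutant brains, against 1.27 to 1.54 in wild-type brains, without overlap. It averaged 1.07 ± 0.0503 in GR-mutant and 1.35 ± 0.0944 in wild-type brains (SD, n = 6 each), a log2 difference of -0.33. The ratio of *csnk1db* to *csnk1e* was 0.583 to 0.643 in GR-mutant brains, against 0.897 to 0.997 in wild-type brains, a log2 difference of -0.64. Both gave p = 0.00216 in a two-sided exact permutation test over every assignment of the 12 libraries to 6 and 6, the smallest p it can give, and 0.00361 adjusted over the 5 ratios tested. The 2 CK1 delta genes therefore differed in the size of their fall, and *csnk1db* fell relative to *csnk1e* in every GR-mutant brain. The genes were chosen with earlier results of these data known, so neither p is independent support for the fall of *csnk1db*.

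Summed over the 2 CK1 delta genes, normalised counts were 7244 ± 305 in GR-mutant and 10329.9 ± 515 in wild-type brains (SD, n = 6 each), 29.9% lower. With *csnk1e* added, the sum was 13399.5 ± 376 in GR-mutant and 16585 ± 722 in wild-type brains, 19.2% lower. *csnk1db* made up 27.96% ± 0.439 of that sum in GR-mutant brains and 35.8% ± 1.07 in wild-type brains, with ranges of 27.4% to 28.5% and 34.5% to 37.4%. These sums are descriptions and were not tested. Like all sums of genes here, they add counts not corrected for gene length, so their percentages are of counts, not of transcripts.

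*csnk1a1* (ENSDARG00000052674), the CK1 alpha gene, fell by 0.30 on the log2 scale. It had 5153, 5250 and 5702 normalised counts at the lowest, median and highest GR-mutant brain, against 5706, 6577 and 7442 in wild-type brains. The genotypes did not overlap, but GR-mutant replicate 4 (5702) and wild-type replicate 1 (5706) all but met. The means were 5312 ± 199 in GR-mutant and 6549 ± 602 in wild-type brains (SD, n = 6 each), with an SE of 0.06, a 95% interval of -0.42 to -0.17 and an adjusted p of 0.00380. *csnk1a1* is the only one of the 10 genes on the chromosome of *nr3c1*, 319 gene IDs away in the order of the tables. Of the 210 IDs matched to RefSeq from *csnk1a1* to *nr3c1*, both included, 98.6% lie on that chromosome. Around gr s357, homozygous mutants also share the chromosome segment that came with the allele, so linkage and loss of GR cannot be told apart for this gene. Of its 13 tested neighbours within 10 places on either side, 2 were lower (FBXO38 and TIMM8A) and none was higher, beside 9.92% lower among all genes tested. These calls are a description, and the part of linkage in the value of *csnk1a1* was not tested.

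The 3 CK1 gamma genes did not move together. *csnk1g2a* (ENSDARG00000005458) had 2239, 2334 and 2354 normalised counts at the lowest, median and highest GR-mutant brain, against 2436, 2656 and 2740 in wild-type brains, with no overlap. Its means were 2320 ± 41.9 in GR-mutant and 2630 ± 111 in wild-type brains (SD, n = 6 each), and its log2 fold change was -0.18 (SE 0.04, 95% interval -0.26 to -0.10, adjusted p = 0.00701). This was a small change beside a very tight group, as the GR-mutant libraries had a coefficient of variation of 1.81%, the lowest of the 10 genes in either genotype. The call was lost at equal library totals (-0.10, adjusted p = 0.114).

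*csnk1g2b* (ENSDARG00000034056), its paralog, had 1541, 1591 and 1718 normalised counts at the lowest, median and highest GR-mutant brain, against 1589, 1699 and 1766 in wild-type brains. The ranges overlapped, and the log2 fold change of -0.07 (95% interval -0.17 to 0.02) did not pass (adjusted p = 0.249). At equal totals it was 0.01 (adjusted p = 0.910). *csnk1g1* (ENSDARG00000104342) had 1621, 1669 and 1794 normalised counts at the lowest, median and highest GR-mutant brain, against 1423, 1566 and 1733 in wild-type brains. All 6 GR-mutant brains lay above the wild-type median, but 3 wild-type brains lay within the GR-mutant range, and the log2 fold change of 0.11 (95% interval -0.01 to 0.22) did not pass (adjusted p = 0.183). At equal totals it was 0.19 and passed (adjusted p = 0.0246).

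The ratio of *csnk1g2b* to *csnk1g2a* averaged 0.692 ± 0.0276 in GR-mutant and 0.644 ± 0.0296 in wild-type brains (SD, n = 6 each), a log2 difference of 0.11. The ranges were 0.655 to 0.736 in GR-mutant and 0.612 to 0.694 in wild-type brains and overlapped, with p = 0.0216 in the exact permutation test, also after adjustment. The sum of the 3 gamma genes was 5613 ± 115 in GR-mutant and 5889 ± 196 in wild-type brains, 4.68% lower, and that of all 7 CK1 genes was 24325 ± 620 in GR-mutant and 29023 ± 1107 in wild-type brains, 16.2% lower.

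**Figure D2:**
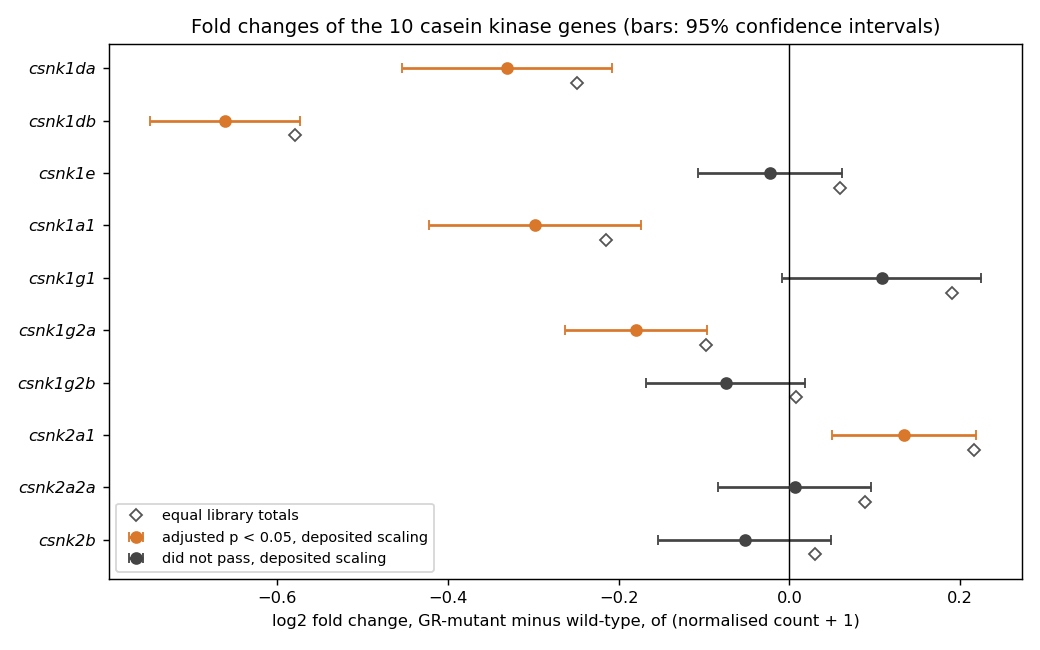
Fold changes of the 10 genes as GR-mutant minus wild-type log2(normalised count + 1) (horizontal axis); filled points and bars are the limma estimates and 95% confidence intervals with the deposited scaling, coloured where the adjusted p was below 0.05, and open diamonds the estimates at equal library totals. Both CK1 delta genes, *csnk1a1* and *csnk1g2a* lie below 0 under either scaling, whereas *csnk1e*, *csnk1g2b* and *csnk2b* change side.

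Of the 3 CK2 genes only *csnk2a1* passed. *csnk2a1* (ENSDARG00000002082), which encodes the catalytic alpha subunit, was higher in GR-mutant brains, by 0.13 on the log2 scale. It had 3705, 3910 and 4113 normalised counts at the lowest, median and highest GR-mutant brain, against 3354, 3544 and 3715 in wild-type brains. Of the 6 GR-mutant brains, 5 lay above every wild-type brain and the remaining one, replicate 6 (3705), fell just under wild-type replicate 7 (3715). The means were 3898 ± 134 in GR-mutant and 3552 ± 135 in wild-type brains (SD, n = 6 each), with an SE of 0.04, a 95% interval of 0.05 to 0.22 and an adjusted p of 0.0317. The call was close to the threshold: without GR-mutant replicate 1, 3, 4 or 5 the adjusted p was 0.0712, 0.0576, 0.0552 or 0.0627, and without wild-type replicate 3 or 5 it was 0.0664 or 0.0599. It was 0.0690 in limma without the trend, and at equal library totals the fold change was 0.22 (adjusted p = 0.00362).

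*csnk2a2a* (ENSDARG00000012818), which encodes the second form of the catalytic subunit, did not pass. It had 1260, 1307 and 1327 normalised counts at the lowest, median and highest GR-mutant brain, against 1230, 1303 and 1351 in wild-type brains, so that the GR-mutant range lay inside the wild-type range. The log2 fold change was 0.01 (95% interval -0.08 to 0.10, adjusted p = 0.936). *csnk2b* (ENSDARG00000077776) encodes the regulatory beta subunit, which joins the catalytic subunits into the tetramer. It had 5388, 5848 and 6111 normalised counts at the lowest, median and highest GR-mutant brain, against 5620, 6042 and 6454 in wild-type brains, overlapping ranges with a log2 fold change of -0.05 (95% interval -0.15 to 0.05, adjusted p = 0.474) and of 0.03 at equal totals (adjusted p = 0.660).

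The ratios between CK2 subunit transcripts were also compared within libraries. The ratio of *csnk2a2a* to *csnk2a1* was 0.321 to 0.344 in GR-mutant brains, against 0.347 to 0.386 in wild-type brains, without overlap. It averaged 0.333 ± 0.00976 in GR-mutant and 0.365 ± 0.0179 in wild-type brains (SD, n = 6 each), a log2 difference of -0.13 (exact permutation p = 0.00216, adjusted p = 0.00361). The ratio of *csnk2b* to the sum of *csnk2a1* and *csnk2a2a* averaged 1.12 ± 0.0809 in GR-mutant and 1.25 ± 0.0505 in wild-type brains (SD, n = 6 each), with ranges of 1.03 to 1.23 in GR-mutant and 1.17 to 1.31 in wild-type brains. Its log2 difference was -0.15 (exact permutation p = 0.0130, adjusted p = 0.0162). A further catalytic gene, csnk2a2b, is not among the 10. With it added to the sum, an alternative chosen after seeing the data, the ratio averaged 0.864 ± 0.0553 in GR-mutant and 0.940 ± 0.0421 in wild-type brains (SD, n = 6 each), a log2 difference of -0.12 (exact permutation p = 0.0303, also after adjustment). Without it, *csnk2a1* and *csnk2a2a* summed to 5196 ± 150 normalised counts in GR-mutant and 4845 ± 155 in wild-type brains, which was not tested.

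**Figure D3:**
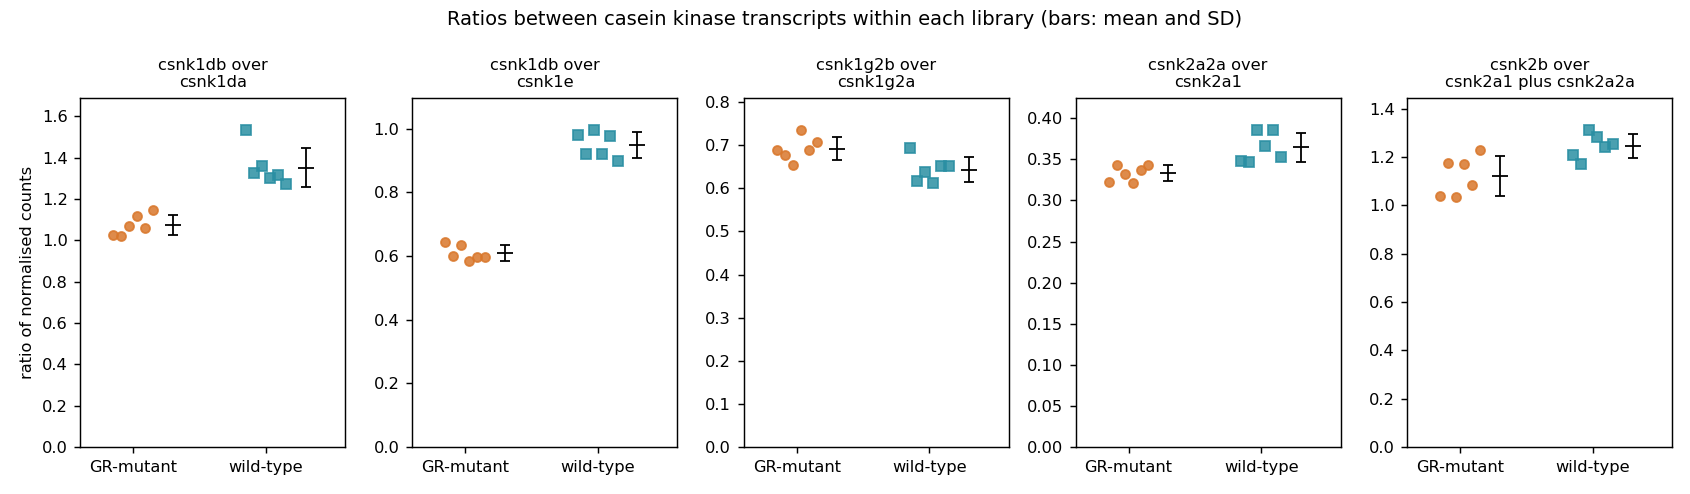
Ratios of normalised counts within each library (vertical axes, starting at 0) for 5 pairs of casein kinase genes or sums, in 6 GR-mutant and 6 wild-type brains; points are libraries and bars the mean and SD. The ratios of *csnk1db* to *csnk1da*, of *csnk1db* to *csnk1e* and of *csnk2a2a* to *csnk2a1* show no overlap between genotypes, and the other two overlap.

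Other genes were counted from 10 lists, of which 119 gene IDs were found and 117 tested. The lists cover relatives, partners and pathways of these kinases, and the last holds glucocorticoid-induced genes. With the deposited scaling 24 were lower and 16 higher, and at equal totals 16 were lower and 29 higher. The glucocorticoid-induced list held 10 of the lower genes under either scaling. Over all genes tested, 9.92% were lower and 7.59% higher, and at equal totals 6.52% and 15%. Each list count below is to be read beside these shares. Genes are named by the symbol of the name table, with the ID where 2 IDs share it.

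Period proteins are the clock targets of CK1 delta and epsilon, and they repress the clock together with cryptochromes. Of 11 Period and cryptochrome genes, listed by name and not by tested function, 6 were lower and 2 higher, with a median log2 fold change of -0.42. The 2 higher were cry3b (0.52, adjusted p = 0.00576) and cry4 (0.49, adjusted p = 0.00594), both without overlap between genotypes. PER1 (ENSDARG00000056885) had 437, 605 and 688 normalised counts at the lowest, median and highest GR-mutant brain, against 1138, 1625 and 2119.8 in wild-type brains, a log2 fold change of -1.51 (adjusted p = 2.72e-05) with no overlap. PER2 had 4795 ± 616 normalised counts in GR-mutant and 7744 ± 915 in wild-type brains (SD, n = 6 each), a log2 fold change of -0.69 (adjusted p = 0.000256). CRY1 (ENSDARG00000011583) changed by -0.55 (adjusted p = 0.00126), whereas CRY1 (ENSDARG00000045768) did not pass (-0.04, adjusted p = 0.687). PER1 (ENSDARG00000012499) changed by -0.50 (adjusted p = 0.00478), with ranges that overlapped. At equal totals the counts in this list were again 6 lower and 2 higher.

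Of 6 clock activator genes, whose products switch Period and cryptochrome genes on, 3 were higher and none lower, with a median of 0.51. BMAL1 (ENSDARG00000006791) had 2320.3 ± 153 normalised counts in GR-mutant and 1382 ± 113 in wild-type brains (SD, n = 6 each), a log2 fold change of 0.75 (adjusted p = 3.85e-06). BMAL1 (ENSDARG00000035732) and bmal2 were also higher, by 0.66 (adjusted p = 0.00106) and 0.61 (adjusted p = 0.0175). CLOCK (ENSDARG00000011703) had a log2 fold change of 0.40 and did not pass (adjusted p = 0.0649), but passed at equal totals (adjusted p = 0.0326). The other CLOCK ID (ENSDARG00000003631) had one of -0.21 and did not pass (adjusted p = 0.289).

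Phosphorylated Period and cryptochrome proteins are removed through ubiquitin ligases. Of 7 ligase genes 1 was lower, 1 higher and 5 did not pass, and at equal totals none was lower and 3 were higher. FBXW11, whose product binds phosphorylated Period proteins, was lower by 0.14 on the log2 scale (adjusted p = 0.0236). At equal totals the call of FBXW11 was lost (adjusted p = 0.348). Of 11 genes of other Period kinases and of phosphatases, PPP1CB, a catalytic subunit of protein phosphatase 1, was lower (-0.17, adjusted p = 0.00930, and 0.120 at equal totals) and 10 did not pass, the GSK3 genes among them.

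Among relatives of CK1 and other casein kinases, 1 of 8 tested genes was lower and none higher. This was VRK2, a kinase of the vaccinia-related family, with 217 ± 47.0 normalised counts in GR-mutant and 324 ± 86.6 in wild-type brains (SD, n = 6 each). Its log2 fold change was -0.56 (adjusted p = 0.0373), a call lost at equal totals (adjusted p = 0.0635). vrk3 and ttbk2a had log2 fold changes of 0.23 and 0.40, passed only at equal totals (adjusted p = 0.0148 and 0.0388) and not with the deposited scaling (0.0617 and 0.0731). Of 7 tested FAM83 genes, which encode anchors that hold CK1 in place, FAM83C was lower and FAM83G higher. At equal totals 1 of the 7 was lower and 2 were higher. FAM83C had 20.2, 38.1 and 42.9 normalised counts at the lowest, median and highest GR-mutant brain, against 44.4, 66.0 and 101 in wild-type brains, a low level without overlap (log2 fold change -0.94, adjusted p = 0.0151). FAM83G, known in mammals for binding CK1 alpha, had 291 ± 48.8 normalised counts in GR-mutant and 213 ± 32.7 in wild-type brains (SD, n = 6 each; 0.45, adjusted p = 0.0322).

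In the Wnt and beta-catenin list, the setting of CK1 alpha and CK1 gamma, 2 of 22 genes were lower, 3 higher and 17 did not pass, and at equal totals none was lower and 8 were higher. amer1, a part of the destruction complex, was lower by 0.23 on the log2 scale (adjusted p = 0.0461, and 0.168 at equal totals). CTNNB1, a beta-catenin gene, was the other lower one, by 0.15 (adjusted p = 0.0464, and 0.289 at equal totals). The 2 DVL3 genes, which encode Dishevelled proteins that CK1 phosphorylates, had log2 fold changes of 0.19 (ENSDARG00000015707, adjusted p = 0.0406) and 0.34 (ENSDARG00000103462, adjusted p = 0.0459), and TCF7L1, a transcription factor of the pathway, one of 0.42 (adjusted p = 0.0246). In the Hedgehog list, where CK1 acts on GLI proteins and on Smoothened, 2 of 9 genes were higher and none lower. GLI1 had 256 ± 16.5 normalised counts in GR-mutant and 161 ± 20.6 in wild-type brains (SD, n = 6 each; 0.68, adjusted p = 0.000383), with no overlap.

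Of 24 genes of CK2 substrates and partners, 4 were lower, 4 higher and 16 did not pass, with a median of -0.08, and at equal totals 1 was lower and 6 higher. PTGES3 (ENSDARG00000037284), an ID for the p23 co-chaperone, had 3069, 3287 and 3607 normalised counts at the lowest, median and highest GR-mutant brain. Wild-type brains had 4622, 6806 and 8453, with no overlap (log2 fold change -0.96, adjusted p = 0.000306). The other PTGES3 ID (ENSDARG00000089626) had 1233 to 1350 normalised counts in GR-mutant and 1374 to 1507 in wild-type brains, also without overlap. Its log2 fold change of -0.10 did not pass (adjusted p = 0.119), and at equal totals it was -0.02 (adjusted p = 0.815). CDC37 did not pass either (-0.26, adjusted p = 0.0570). SSRP1 (ENSDARG00000016994), of the FACT chromatin complex, was lower by 0.23 on the log2 scale (adjusted p = 0.0108, and 0.0740 at equal totals). The other SSRP1 ID (ENSDARG00000037397) had a log2 fold change of 0.16 that did not pass (adjusted p = 0.151). At equal totals it passed as higher (adjusted p = 0.0354). ncl (nucleolin, a nucleolar protein) and TTI1 (a partner of TEL2) were higher, by 0.15 (adjusted p = 0.0141) and 0.53 (adjusted p = 0.00472).

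**Figure D4:**
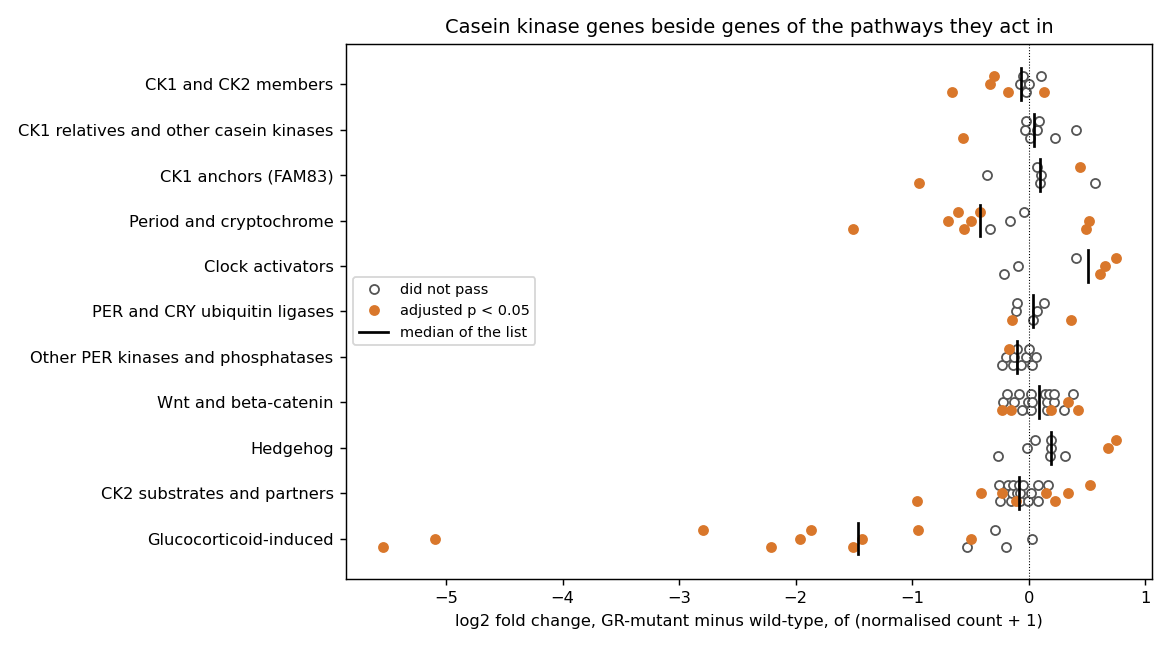
Log2 fold changes, GR-mutant minus wild-type (horizontal axis), of the 10 casein kinase genes and of the tested genes of 10 lists (rows); each point is 1 gene, filled where the adjusted p was below 0.05, and vertical bars are medians. The glucocorticoid-induced list has the lowest median (-1.47), and the Period and cryptochrome list (-0.42) lies on the other side of 0 from the clock activators (0.51).

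The glucocorticoid-induced list was chosen with earlier results of these data known, so its fall is no independent result. Of its 14 genes 10 were lower and none higher, with a median of -1.47, against 0.01 over all genes tested. tsc22d3, a classical GR target, had 878 ± 73.8 normalised counts in GR-mutant and 6131 ± 765 in wild-type brains (SD, n = 6 each). It changed by -2.80 on the log2 scale (adjusted p = 1.10e-10), and KLF9 changed by -5.54 (adjusted p = 3.07e-08). DDIT4 and nfkbiab changed by -1.96 (adjusted p = 3.51e-08) and -1.87 (adjusted p = 4.93e-09). The change of *csnk1db* (-0.66) was smaller than each of these 4, which were named for the smallest p in the list. It lay between those of the 2 PER1 IDs in the list (-0.50 and -1.51), and 4 of the 14 genes did not pass. Both PER1 genes stand in this list as well as in the clock list. The level of *nr3c1* itself does not check the genotypes, as the allele is missense: it had 4817 ± 116 normalised counts in GR-mutant and 4329 ± 200 in wild-type brains (SD, n = 6 each), which is a difference of 0.15 on the log2 scale (adjusted p = 0.0160).

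The genes whose levels followed those of the CK1 delta genes most closely were found by Pearson's r on the log2 scale over the 12 libraries, among 16027 genes. For *csnk1db* these were SOX11 (ENSDARG00000095743, r = 0.993), HSP90AA1 (0.992), FAM107B (0.991), nr1d2a (0.991) and CFAP298 (0.990), and 305 genes had r of at least 0.9. For *csnk1da* they were SIK2 (ENSDARG00000062315, r = 0.971), usp2b (0.970), ZSWIM5 (0.963), ULK2 (0.963) and DENND5B (0.962), and 122 genes had r of at least 0.9. All 10 were lower in GR-mutant brains, with log2 fold changes of -2.23 to -0.27, and the 12 points of each r share their size factors and fall into 2 genotype groups. With each genotype's mean taken off, the genes most like *csnk1db* included KDM1A (r = 0.924), hap1 (0.896), si:ch1073-358o18.3 (0.846) and SCLT1 (0.840), and those most like *csnk1da* were SC5D (0.923), USP33 (0.884), B4GALT2 (0.880), PPP1R10 (0.877) and SMPD3 (0.875). No gene closest over all libraries recurred among these, of which SC5D was higher in GR-mutant brains and KDM1A and PPP1R10 were lower. The r with genotype means taken off are the highest of 16027 genes over 12 libraries. High values were thus selected for, and for each CK1 delta gene only 1 reached 0.9.

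Markers of the cell types in a whole brain were read beside these values. Over all genes tested, 9.92% were lower and 7.59% higher. Of 14 neuronal marker IDs 1 was lower and none higher, and their sum was 298707 to 317656 normalised counts in GR-mutant brains, against 316933 to 333207 in wild-type brains. Of 9 radial glial and astroglial markers tested, 2 were lower (both GLUL genes) and 1 higher, with sums of 108555 to 128602 in GR-mutant and 127448 to 144579 in wild-type brains. The other lists called 1 lower and 1 higher of 9 for oligodendrocytes, 1 lower of 7 for microglia, 1 lower and 3 higher of 7 for endothelium, 1 higher of 8 for the pituitary, and none of 3 for red blood cells or of 5 for muscle. Pituitary sums spread widely, from 367.8 to 87309 in GR-mutant and from 6789 to 46066 in wild-type brains, as did those of muscle genes, from 243.6 to 26390.4 in GR-mutant and from 171.8 to 12949 in wild-type brains. No listed marker was at 0 in all libraries. The part of these differences in the casein kinase values was not tested.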

How the data were processed

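RNA-Seq libraries of 12 brains were analysed, with 24407683 to 37548901 reads in genes per library. Per the submitters' processing notes and the methods, the authors trimmed the reads (Trimmomatic), took out ribosomal reads, and used STAR both to align to GRCz11 and to count per gene. The authors then deposited counts divided by DESeq2 size factors, a signal per gene. Divided by the value of 1 read, 100% of values were whole within 0.001. The library kit keeps strand, with the strand STAR counted not given in the sources used here. Paralogs or overlapping genes may share reads. Any 2 libraries differed in at least 24900 genes, so none was a duplicate.

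The main model was limma (3.58.1, R 4.3.3) with a trend and no block, on log2(normalised count + 1) of 20114 genes that reached 10 normalised counts in 6 or more libraries. Benjamini-Hochberg adjustment covered all of these, with a threshold of 0.05. The 5 within-library ratios were compared by exact permutation. The alternatives were other pseudocounts (0.5 and 5), filters and scalings, a replicate block, no trend, leaving out each library, and the count models of edgeR (4.0.16) and of DESeq2 (1.42.0) on reads recovered from the values.

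The casein kinase genes and all lists were chosen with earlier results of these data known. Named by rule are the 10 genes, up to 4 genes with the smallest p of each list, *nr3c1*, and the 5 genes closest to each CK1 delta gene by r. Some list genes outside this rule are named as well, such as second IDs of a symbol. Of the genes that this rule takes, 3 are not reported here. For 178 of 201 list symbols an ID was found, often by the symbol without its paralog letter. The IDs of *csnk1g2a* and *csnk1g2b* share 1 symbol in the name table and were told apart by gene order against RefSeq (13 and 12 shared neighbours). RefSeq's build differs from GRCz11, so no coordinates are given. Replicate numbers did not pair the samples: same-numbered libraries correlated at -0.15 to 0.08.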

Additional observations from a re-analysis of the deposited data

Results flagged for a closer look

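In 4 of the 30 sets of 6 libraries examined, 1 library stood further from the rest than Dixon's 95% criterion allows for 6 values, where chance gives about 1 in 20. GR-mutant replicate 4 had the highest *csnk1e* value of its genotype (6574 normalised counts, others 5985 to 6191) and the highest *csnk1a1* value (5702, others 5153 to 5323). GR-mutant replicate 5 had the lowest *csnk1g2a* value (2239, others 2316 to 2354). Wild-type replicate 1 had the highest ratio of *csnk1db* to *csnk1da* (1.54, others 1.27 to 1.36), as it had the lowest wild-type *csnk1da* value. None of these libraries decided a call of the gene it stood out in: leaving out any 1 library kept the adjusted p of *csnk1a1* between 0.000806 and 0.0110, that of *csnk1g2a* between 0.00251 and 0.0209, that of *csnk1e* between 0.495 and 0.963, and that of the ratio between 0.00361 and 0.00541.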

How the results depend on the processing

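The calls of *csnk1db*, *csnk1da* and *csnk1a1* held under all 23 alternatives, with log2 fold changes of -0.68 to -0.58, -0.37 to -0.25 and -0.34 to -0.22. The count of casein kinase genes lower was 3 to 4 throughout. The count higher was 1 and became 2 at equal totals, 0 without the trend, 0 with the replicate block, and 0 to 1 when single libraries were left out. Directions turned only for genes that did not pass: at equal totals *csnk1e* (0.06), *csnk1g2b* (0.0078) and *csnk2b* (0.030), and *csnk2a2a* between -0.0081 and 0.019 when single libraries were left out. Of the genes in the 10 lists, 16 were higher, 20 with DESeq2 and 29 at equal totals. Over all genes limma called 3523, edgeR 3458 and DESeq2 4406.

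The replicate block covers the 10 libraries whose number both genotypes share. It called 2324 genes against 3031 without the block over the same 10, a fit added after seeing the data. With it *csnk1g2a* (-0.18, adjusted p = 0.0596, against 0.0218 without) and *csnk2a1* (0.16, adjusted p = 0.0612) did not pass. The ratios paired by number were -0.37 (*csnk1db* to *csnk1da*), -0.65 (to *csnk1e*), 0.10 (*csnk1g2b* to *csnk1g2a*), -0.14 (*csnk2a2a* to *csnk2a1*) and -0.18 (*csnk2b*), where 5 pairs cannot give an exact p below 0.0625. No library correlated best with the library of its own number.

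Each library is 1 brain, but nothing says that the fish of a genotype came from separate clutches or tanks, so p-values measure the spread between these fish. A gene that did not pass is not shown to be unchanged, and its interval bounds the change.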

Other observations

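Another CK2 catalytic gene, csnk2a2b, had 1545 ± 89.4 normalised counts in GR-mutant and 1575 ± 68.7 in wild-type brains (SD, n = 6 each), a log2 fold change of -0.03 that did not pass (adjusted p = 0.727). An ID named CSNK2A3 (ENSDARG00000091702) was near the detection limit, with 13 to 37 reads per library, and had 19.3 ± 4.45 normalised counts in GR-mutant and 28.2 ± 10.01 in wild-type brains (adjusted p = 0.191).

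With each genotype's mean taken off, the casein kinase genes varied together to different degrees over the 12 libraries, which share their size factors. Pearson's r was 0.78 for *csnk1da* with *csnk1g2a*, 0.68 for *csnk1da* with *csnk2a2a* and 0.67 for *csnk1g2a* with *csnk2a2a*, and 0.54 for the 2 CK1 delta genes. The lowest was -0.43, for *csnk1e* with *csnk1g1*. These values are descriptions over 12 libraries.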
